A study of Homo sapiens with 208 samples.

Results

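The 10 genes described here encode the death ligand TRAIL (TNFSF10), its 4 membrane receptors (TNFRSF10A, TNFRSF10B, TNFRSF10C and TNFRSF10D), the receptors FAS and TNFRSF21, and the proteins that act inside the cell next to them (FADD, CASP8 and CFLAR). They were found on the array by the accession that each probe carries, which gave 14 of 41000 probes and 10 of the 16961 genes with a named probe. All 10 were among the 13263 genes that passed the filter on dim signal, and their mRNA levels were followed in 2 human lines. PC9 is a lung adenocarcinoma line that depends on a mutant, constantly active EGF receptor (EGFR) and is sensitive to gefitinib, a small molecule inhibitor of the EGFR kinase. Its resistant derivative, labelled PC9GRM2 and called PC9M2 here, is 1 clone isolated after prolonged culture of PC9 with gefitinib. It was chosen among clones without MET amplification or the common second-site EGFR mutation, so it stands for that clone alone. Every culture, the untreated ones included, was first starved for 48 h. Each line was then sampled under no treatment, 100 ng/ml EGF (the natural ligand of EGFR), 0.5 uM gefitinib, or EGF and gefitinib together. Each of these 8 courses has 26 time points, at 0, 0.5 and 1 h and then every hour up to 24 h, with 1 array for each. Gefitinib was given before sampling began. A difference at 0 h is therefore not a baseline.

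TRAIL is a membrane protein of the tumour necrosis factor family that triggers apoptosis in cells carrying the receptors TNFRSF10A (DR4) and TNFRSF10B (DR5). These receptors, like FAS, hold a death domain inside the cell, recruit the adaptor FADD, and through it bring together and activate the initiator caspase CASP8. TNFRSF10C and TNFRSF10D bind TRAIL without a complete death domain and are known as decoy receptors, whereas CFLAR (c-FLIP) is a relative of CASP8 that limits its activation. TNFRSF21 (DR6) carries a death domain too but does not bind TRAIL. TNFSF10 is a known target of FOXO and of interferon-responsive transcription factors.

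The sequences just upstream of the genes are shown to place the ligand beside an adaptor and a receptor that moved less. RefSeq (GRCh38.p14) lists a single transcription start for TNFSF10, FADD and TNFRSF21, and the 250 bases before it are given for these genes. They read 5′ to 3′ on the gene's own strand, and capitals mark each match to the motifs named next.
TNFSF10, chr3:172523431-172523680, minus strand: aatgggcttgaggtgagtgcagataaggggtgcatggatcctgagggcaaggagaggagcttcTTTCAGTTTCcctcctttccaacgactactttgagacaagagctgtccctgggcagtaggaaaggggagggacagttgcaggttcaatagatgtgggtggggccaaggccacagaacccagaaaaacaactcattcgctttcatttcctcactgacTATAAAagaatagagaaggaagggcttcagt
FADD, chr11:70203046-70203295, plus strand: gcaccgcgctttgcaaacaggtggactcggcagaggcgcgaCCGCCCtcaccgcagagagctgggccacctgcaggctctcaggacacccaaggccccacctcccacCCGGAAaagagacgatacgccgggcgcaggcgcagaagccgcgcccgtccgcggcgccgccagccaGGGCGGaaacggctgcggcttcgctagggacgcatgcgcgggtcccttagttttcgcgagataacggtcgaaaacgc
TNFRSF21, chr6:47309906-47310155, minus strand: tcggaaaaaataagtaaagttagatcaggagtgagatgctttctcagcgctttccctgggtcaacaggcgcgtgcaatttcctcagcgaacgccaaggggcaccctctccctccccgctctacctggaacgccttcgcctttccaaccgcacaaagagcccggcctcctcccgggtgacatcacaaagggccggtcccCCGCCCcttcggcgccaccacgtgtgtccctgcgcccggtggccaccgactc
Both strands were searched for 6 motifs, none of whose matches overlapped another here, and the shares given are of the 35116 windows of this length in RefSeq. The interferon element, with the letters GAAANNGAAA, was held by 3.02% of those windows. The TATA box was searched as TATAAA and was in 10.7%, and the GC box, written GGGCGG, was in 42.6%. For the core bound by ETS factors the search used CCGGAA, which 14.5% of the windows held. An AP-1 site was taken as TGANTCA, present in 6.57%, and the core bound by FOXO factors as TGTTTAC, present in 2.98%. In TNFSF10 the interferon element matched on the reverse strand from -187 to -178, and the TATA box from -31 to -26, counting backwards from the start. FADD held 2 GC boxes and an ETS core, and TNFRSF21 held 1 GC box. The letters of the FOXO core and the AP-1 site were not in any of these 3 windows, which is a description of the windows only.

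Signals are given as the log2 of the normalized signal, 1 unit being a doubling, and levels are compared within a probe, never between genes. The number of features above background by the scanner software's test ranged from 24464 to 35938 per array. The defining epithelial markers (EPCAM, CDH1, KRT7, KRT8, KRT18 and KRT19) were well above background on all 104 arrays of each line. The lung lineage factor NKX2-1 was so on only 9 and 4 of 104 arrays in PC9 and PC9M2, whereas NAPSA and SFTPC were so on at least 103 and SFTPB on 46 and 43. Among measured genes of other cell types, PTPRC, COL3A1 and LUM were well above background on at most 4 arrays of a line, DCN, CDH5 and CD3E on 12 to 52, and PECAM1, CD14 and VWF on at least 103, and their part in the results was not tested. Arrays of the 2 lines shared no slide and no scan day, so line and scan cannot be told apart. Saturated features numbered 183 to 1616 per array in PC9 and 0 on every PC9M2 array. Their part in the line differences was not tested. The 4 treatments of a line at a time point always shared a slide. At 0.5 h, the PC9M2 arrays labelled EGF and EGF and gefitinib went against their labels. DUSP6, an early target of EGFR signalling, had 7.75 on the array labelled EGF and 12.5 on the array labelled EGF and gefitinib, against 12.6 and 7.85 at 1 h. Across the tested genes, the gefitinib difference at that point correlated at -0.39 with the mean of the other time points, where the other 103 such correlations lay between 0.24 and 0.95. The arrays were kept as labelled, and the gefitinib and EGF results that rest on them are also given without 0.5 h. Another 3 arrays were the least correlated with their neighbours in time: untreated PC9M2 at 11 h, gefitinib-treated PC9 at 16 h and untreated PC9 at 18 h.

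Gefitinib was compared with its absence at each time point to ask how the pathway responded in each line. A gene was called when the adjusted p of limma's test on the paired differences was under 0.05. In PC9, 9 of the 10 genes were called, 4 higher and 5 lower with gefitinib, while 72.3% of all tested genes were called. In PC9M2 it was 8 of 10 (3 higher and 5 lower) beside 66.7%. In the presence of EGF it was 9 of 10 in PC9 and 9 of 10 in PC9M2, beside 78.9% and 74.5%. With such backgrounds the counts say little about these genes, so the sizes are given. The median absolute difference of the 10 genes was 1.37 in PC9 and 0.91 in PC9M2, beside 0.44 and 0.32 over all tested genes. TNFRSF10C passed the filter only through the gefitinib-treated PC9 courses, where it was high, so its part in these counts and medians follows in part from the filter. The time points are serial samples of courses without repeat cultures, so the p-values measure the spread between time points. In this RNA from whole cultures, fewer cells expressing a gene and less RNA per cell cannot be told apart.

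**Figure D1:**
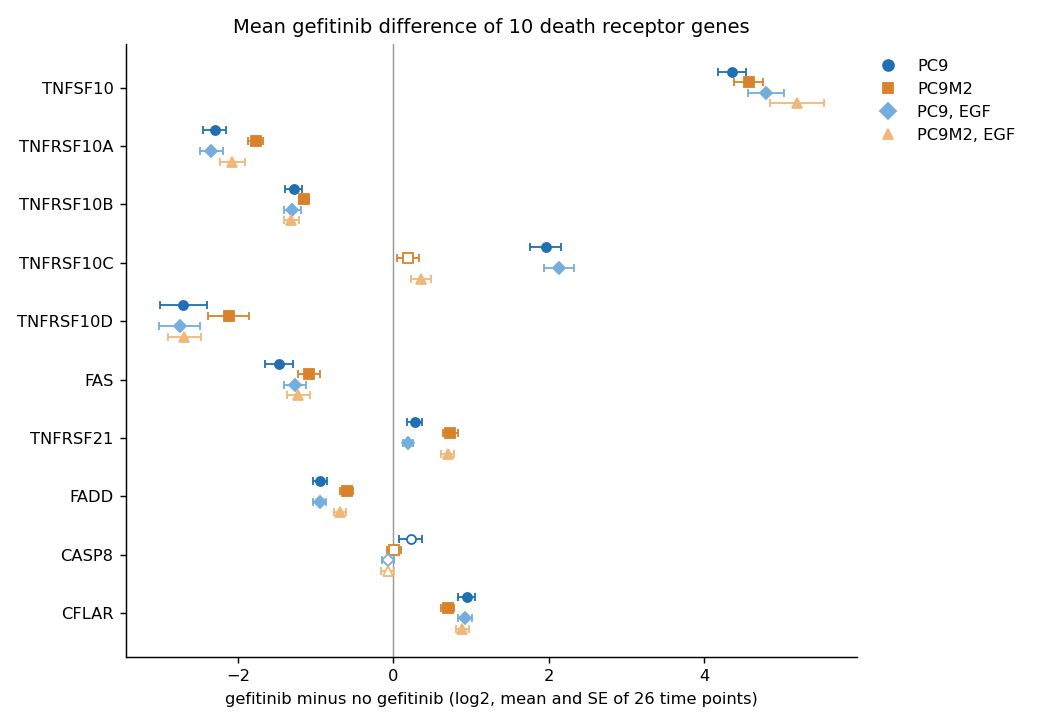
Mean difference between gefitinib and no gefitinib (x axis, log2, with the standard error over 26 time points) for the 10 genes in PC9 and PC9M2, without and with EGF; filled symbols were called and open symbols were not. TNFSF10 lies near 4 to 5 in all 4 comparisons, the 3 receptor genes TNFRSF10A, TNFRSF10B and TNFRSF10D below 0, and TNFRSF10C high only in PC9.

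TNFSF10, the ligand, rose most. In untreated PC9 its log2 signal was between 4.75 and 6.04 with a median of 5.31, and in gefitinib-treated PC9 between 7.00 and 10.91 with a median of 9.82. In untreated PC9M2 it was between 4.86 and 6.77 (median 6.27), and with gefitinib between 8.43 and 11.77 (median 11.20). The treated and untreated courses did not overlap in either line, which held for 1.58% of the genes in PC9 and 0.847% in PC9M2. The mean paired difference was 4.35 ± 0.18 (SE, n = 26 time points), or 20.3-fold, in PC9 (limma, adjusted p = 1.3e-17), and 4.57 ± 0.19, or 23.8-fold, in PC9M2 (adjusted p = 2.01e-17), and it was positive at all 26 time points of both. Among the 13263 genes it was rank 5 of the increases in PC9 and rank 1 in PC9M2. The probe was well above background on all 26 arrays of each gefitinib course but on only 19 of the untreated PC9 arrays. It is printed as 10 spots on every array, and the median SD between those spots was 0.21 in untreated and 0.06 in gefitinib-treated PC9.

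The TNFSF10 difference was smallest at 0 h, where it was 1.32 in PC9 and 1.76 in PC9M2. Over 0 to 2 h it averaged 2.50 in PC9 and 2.48 in PC9M2, over 3 to 8 h 4.08 and 4.49, over 9 to 16 h 4.94 and 5.15, and over 17 to 24 h 4.87 and 5.11. The increase was therefore mostly complete by 9 h in both lines. A spline fitted to the differences changed over time in both (limma, adjusted p = 1.31e-09 in PC9 and 7.48e-13 in PC9M2). With EGF present, the mean difference was 4.79 ± 0.23 in PC9 (n = 26 time points) and 5.19 ± 0.35 in PC9M2. Without 0.5 h the latter was 5.48. Within single scan days, the difference without EGF ranged from 2.50 to 5.13 in PC9 (8 days) and from 2.40 to 5.22 in PC9M2 (9 days), so it was positive on every scan day.

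**Figure D2:**
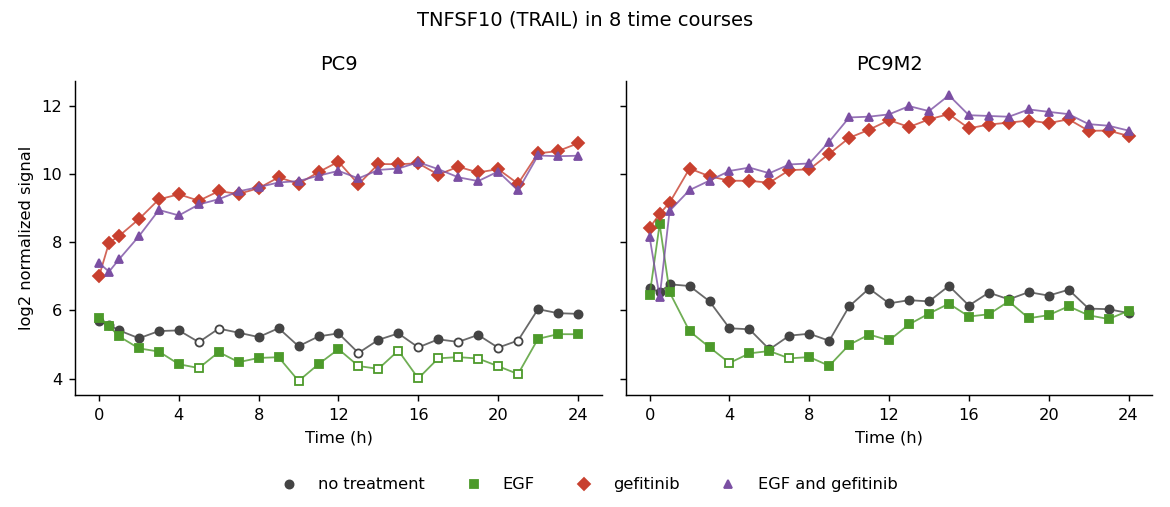
Log2 normalized signal of TNFSF10 (y axis) at each time point (x axis, h) in the 4 treatments of PC9 (left) and PC9M2 (right), 1 array per point; open symbols mark arrays on which the probe was not well above background. Both gefitinib courses lie above both others in each line from 0 h on, except for the crossed pair of PC9M2 arrays at 0.5 h, with 8.54 on the array labelled EGF and 6.39 on the array labelled EGF and gefitinib.

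The 2 receptors that pass on the TRAIL signal moved the other way. TNFRSF10A (DR4) had a log2 signal between 9.22 and 11.34 (median 10.29) in untreated PC9, and between 7.08 and 9.52 (median 7.98) with gefitinib. In PC9M2 it was between 8.41 and 9.71 (median 9.09) without treatment and between 6.55 and 8.06 (median 7.22) with gefitinib. These PC9M2 courses did not overlap, and in PC9 only 2 of the 26 treated arrays reached the untreated range. The gene fell by 2.30 ± 0.15 on the log2 scale in PC9 and by 1.77 ± 0.10 in PC9M2, lower at 26 of 26 time points in both (limma, adjusted p = 2.78e-13 and 1.83e-14). TNFRSF10B (DR5) fell by 1.28 ± 0.11 in PC9, from a median of 12.61 to 11.19, and by 1.15 ± 0.06 in PC9M2, from 12.22 to 10.94, again at every time point (adjusted p = 5.02e-11 and 2.83e-15). Its second probe gave -1.31 and -0.89. Both falls grew over the course. The TNFRSF10A difference in PC9 went from -0.88 over 0 to 2 h to -3.06 over 17 to 24 h, and that of TNFRSF10B from -0.45 to -1.74. In PC9M2 the corresponding values were -1.32 and -2.05 for TNFRSF10A, and -0.78 and -1.44 for TNFRSF10B.

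The decoy receptors TNFRSF10C and TNFRSF10D moved in opposite directions in PC9. TNFRSF10D fell by 2.70 ± 0.30 in PC9 (limma, adjusted p = 5.78e-09, lower at 26 of 26 time points) and by 2.12 ± 0.26 in PC9M2 (adjusted p = 3.21e-08, lower at 24 of 26). Its untreated log2 signal was between 5.18 and 7.30 in PC9 and between 4.09 and 6.52 in PC9M2. With gefitinib it was well above background on only 9 of 26 arrays in PC9 and 4 of 26 in PC9M2, with medians of 3.61 and 3.27, so the size of the fall is limited by the background there. A single gefitinib-treated PC9M2 array, at 14 h, had 6.77, above that course's other arrays and above the untreated array of the same time at 5.21.

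TNFRSF10C was dim on this array. Untreated PC9 had between 2.08 and 3.72 (median 2.27), with 5 of 26 arrays well above background, and gefitinib-treated PC9 between 2.22 and 6.09 (median 4.61), with 15 of 26. Since the gene was tested only because it was high in the gefitinib-treated PC9 courses, its differences there are given as a description, with no p. The mean difference was 1.96 ± 0.20, higher at 25 of 26 time points, and it was largest over 3 to 8 h at 3.26 and smaller over 17 to 24 h at 1.19. In PC9M2 only 1 gefitinib-treated and 0 untreated arrays rose above background, and the difference of 0.19 ± 0.14 was not called (adjusted p = 0.25). With EGF present it was 2.13 ± 0.19 in PC9. In PC9M2 it was 0.35 ± 0.13 with EGF, which was called (adjusted p = 0.018) although 1 and 0 of the 26 arrays were above background, and without 0.5 h it was 0.335. No fold is given for PC9M2, since the bound that the background allows is under 1.

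**Figure D3:**
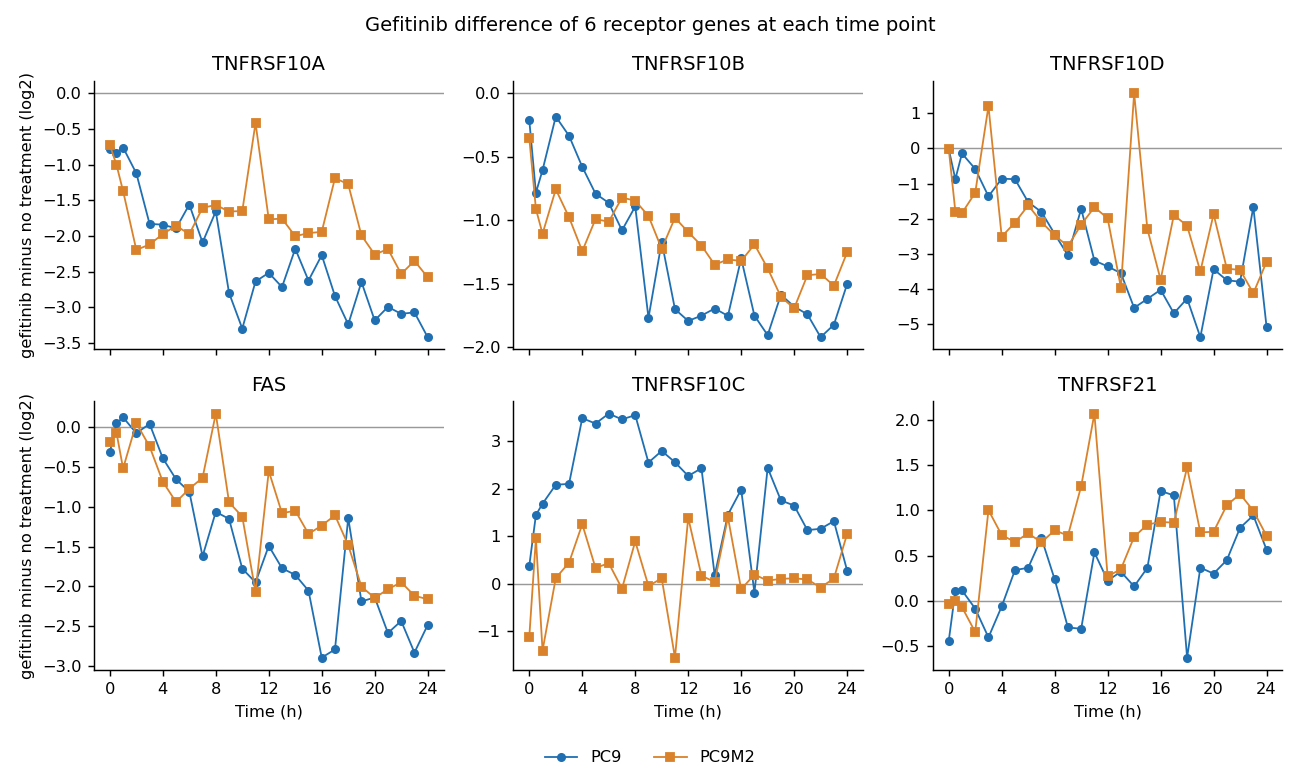
Difference between the gefitinib-treated and the untreated array of the same time point (y axis, log2) against time (x axis, h) for 6 receptor genes in PC9 and PC9M2, 1 pair of arrays per point; the grey line is 0 and the panels have separate y axes. TNFRSF10A, TNFRSF10B and FAS move further below 0 with time in both lines and TNFRSF10D in PC9, with a PC9M2 pair at 1.57 at 14 h, and TNFRSF10C reaches over 3 between 4 and 8 h in PC9 alone.

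With EGF present the same 3 receptors were lower too. In PC9 the differences were -2.34 ± 0.15 for TNFRSF10A, -1.30 ± 0.11 for TNFRSF10B and -2.75 ± 0.26 for TNFRSF10D, and in PC9M2 they were -2.07 ± 0.16, -1.31 ± 0.10 and -2.69 ± 0.21. Without 0.5 h the PC9M2 values were -2.22, -1.38 and -2.85.

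FAS, the receptor for FAS ligand, was lower with gefitinib mainly late in the course. In PC9 its log2 signal was between 8.89 and 10.14 (median 9.18) without treatment and between 6.68 and 9.32 (median 7.65) with gefitinib. In PC9M2 it was between 6.80 and 9.26 (median 8.16) without treatment and between 6.35 and 7.64 (median 6.91) with gefitinib. The mean difference was -1.47 ± 0.18 in PC9 (limma, adjusted p = 4.39e-08, lower at 23 of 26 time points) and -1.08 ± 0.14 in PC9M2 (adjusted p = 8.5e-08, lower at 24 of 26). Over 0 to 2 h the difference was only -0.05 in PC9 and -0.18 in PC9M2, and over 17 to 24 h it was -2.33 and -1.88. The courses behind these differences were as follows, and their change over time was not compared between the lines by a test. Within a course, time cannot be told apart from slide. In untreated PC9M2, FAS went from 7.20 at 0 h to 8.93 at 24 h, with a fitted range of 2.05 (limma spline, adjusted p = 3.73e-08), while its gefitinib-treated course was at 7.01 at 0 h and 6.77 at 24 h. In PC9 the treated course went from 8.84 to 6.74, whereas untreated PC9 went from 9.15 to 9.23, with a fitted range of 0.54 that was not called (adjusted p = 0.065). FASLG, the ligand of FAS, did not pass the filter. TNFRSF21 (DR6) was a little higher with gefitinib. The difference was 0.27 ± 0.09 in PC9 (limma, adjusted p = 0.01, higher at 19 of 26 time points) and 0.73 ± 0.10 in PC9M2 (adjusted p = 1.59e-07, higher at 22 of 26). In PC9 its call was lost with scan day as a random block and with the variance inflated for autocorrelation, while its second probe gave 0.31 in PC9 and 0.50 in PC9M2.

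Among the genes acting inside the cell, the adaptor FADD fell and the inhibitor CFLAR rose. FADD had a median of 11.81 in untreated and 10.85 in gefitinib-treated PC9, a fall by 0.94 ± 0.09 (limma, adjusted p = 4.79e-10, lower at 26 of 26 time points). In PC9M2 it fell by 0.60 ± 0.09 (adjusted p = 6.03e-07, lower at 24 of 26). Its second probe, saturated on 7 arrays, all of them of PC9, gave -0.81 and -0.60. CFLAR had a median of 7.06 in untreated and 7.94 in gefitinib-treated PC9, higher by 0.94 ± 0.11 (limma, adjusted p = 2.03e-08, higher at 25 of 26 time points), and it was higher by 0.70 ± 0.09 in PC9M2 (adjusted p = 4.51e-08, higher at 24 of 26).

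CASP8 has 2 probes that told different stories, and no direction is given for the gene. The probe with the larger variance (A_23_P209389), printed as 10 spots, differed by 0.22 ± 0.15 in PC9 and 0.01 ± 0.09 in PC9M2, neither of which was called (limma, adjusted p = 0.20 and 0.94). The other probe (A_24_P157087) was lower with gefitinib, at -0.53 ± 0.09 in PC9 (adjusted p = 1.21e-05) and differed by -0.16 ± 0.09 in PC9M2 (adjusted p = 0.10). Over all arrays of both lines the correlation between these probes was -0.08, against 0.93 for the probes of TNFRSF10B, 0.86 for TNFRSF21 and 0.65 for FADD. The level of the 10-spot probe was largely shared by the 4 treatments of a slide in PC9M2. Each slide of a line holds a single time point, so slide and time cannot be told apart here. In PC9M2 the SD of its slide means was 0.77 and the SD among the 4 treatments of a slide 0.32, and its mean went from 10.58 over 0 to 15 h to 9.14 over 16 to 24 h in all treatments together. That step falls between scan days, and the part of the scan day in it was not tested. The spread between its 10 spots on an array was small, with a median SD of 0.11 in untreated PC9M2.

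**Figure D4:**
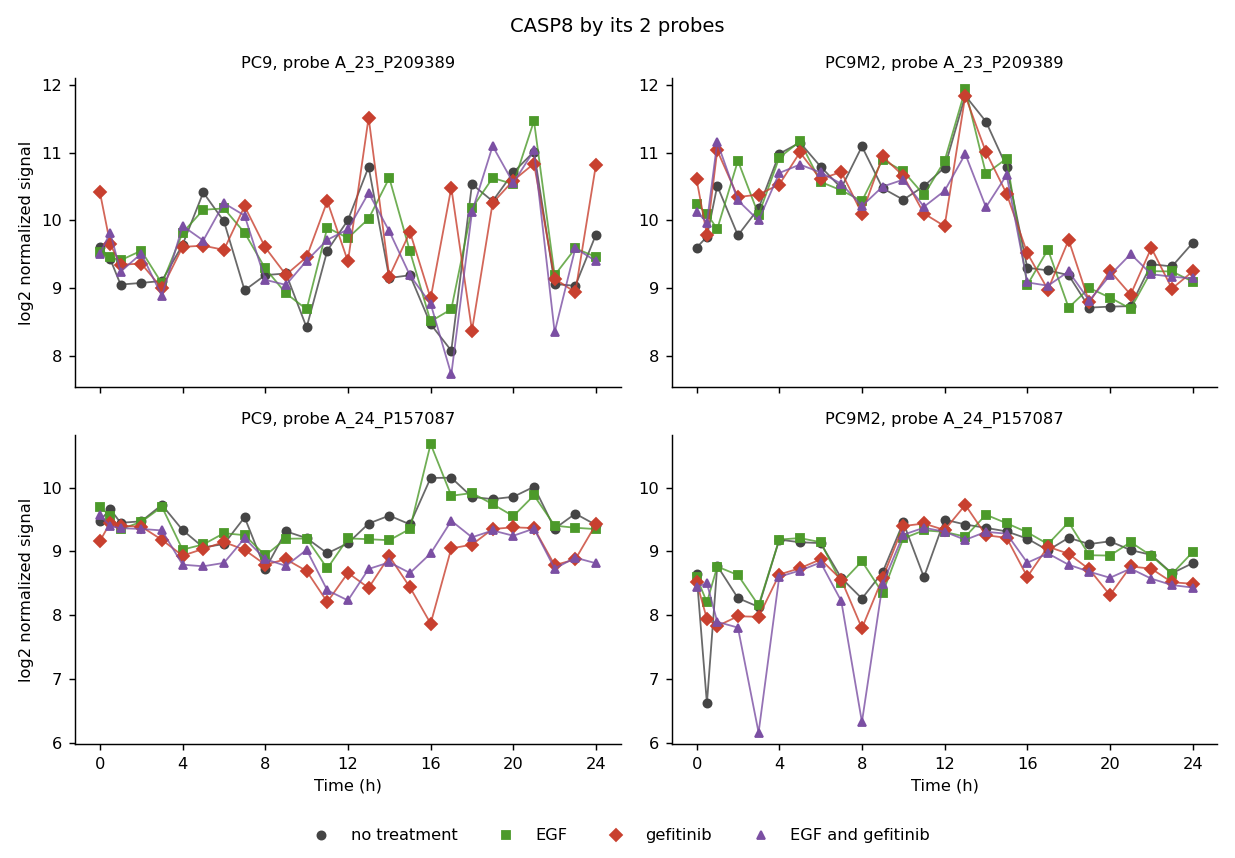
Log2 normalized signal (y axis) of CASP8 by its 10-spot probe (upper row) and its other probe (lower row) against time (x axis, h) in PC9 (left) and PC9M2 (right), 1 array per point and 4 treatments. In PC9M2 the 4 treatments of the upper row share a step down from 15 to 16 h (10.79 to 9.30 without treatment), while the other probe averaged 8.71 up to 15 h and 8.86 after it.

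The size of the gefitinib response was then compared between the lines, as the difference of the paired differences. Of the 10 genes, 6 were called, beside 34.0% of all tested genes. These counts include TNFRSF10C, which was tested only because it was high in gefitinib-treated PC9 and was above background on 1 gefitinib-treated and 0 untreated arrays of PC9M2. Its difference of -1.77 (PC9M2 minus PC9) therefore rests on background signal in PC9M2 and is given as a description. The decreases of TNFRSF10A, FAS and FADD against the untreated course were smaller in PC9M2, by 0.54 ± 0.15 (adjusted p = 0.0062), 0.39 ± 0.12 (adjusted p = 0.012) and 0.34 ± 0.11 (adjusted p = 0.021). The rises of TNFRSF21 and TNFSF10 were larger in PC9M2, by 0.46 ± 0.12 (adjusted p = 0.0040) and 0.23 ± 0.08 (adjusted p = 0.020). The TNFSF10 probe was well above background on 19 of the 26 untreated arrays in PC9 and on all 26 in PC9M2. The part of this in its difference was not tested. TNFRSF10B, TNFRSF10D, CASP8 and CFLAR were not called, with differences of 0.12 ± 0.09, 0.58 ± 0.33, -0.21 ± 0.18 and -0.25 ± 0.13. The value of TNFRSF10D is limited by the background, which only 9 and 4 of its 26 gefitinib-treated arrays in PC9 and PC9M2 were well above. For TNFRSF10B the other probe gave 0.42 ± 0.09, which was called (adjusted p = 0.00080), and for FADD the other probe gave 0.21 ± 0.13, which was not (adjusted p = 0.22). FADD was not called without 11, 16 and 18 h (0.23, adjusted p = 0.061). Over the first 13 time points none of the 9 genes other than TNFRSF10C was called by limma, the smallest adjusted p among them being 0.055 (TNFRSF21).

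The levels of the 2 lines were also compared directly. These comparisons use the same arrays as the gefitinib differences, and the line cannot be told apart from the slides and scan days. Without treatment 9 of the 10 genes were called, 3 higher and 6 lower in PC9M2, beside 68.1% of all tested genes. With gefitinib 7 were called beside 64.9%, with EGF 8 beside 69.8%, and with EGF and gefitinib 8 beside 67.7%. Both counts with gefitinib include TNFRSF10C, tested only because it was high in those PC9 courses, so its part in them is a description. TNFSF10 was higher in PC9M2 by 0.81 ± 0.13 without treatment (limma, adjusted p = 2.87e-06, higher at 23 of 26 time points) and by 1.03 ± 0.09 with gefitinib (adjusted p = 7.59e-11, higher at 26 of 26). Its probe was well above background on 19 of the 26 untreated arrays in PC9 and on all 26 in PC9M2. The mean levels of the main TRAIL and FAS receptors were lower in PC9M2 without treatment. Without treatment TNFRSF10A was lower, at -1.30 ± 0.10, and FAS, at -1.23 ± 0.13, both at 26 of 26 time points (adjusted p = 2.13e-12 and 3.22e-09), TNFRSF10D, at -0.97 ± 0.11, and TNFRSF10B, at -0.45 ± 0.08. With gefitinib the differences were -0.77 ± 0.16 for TNFRSF10A, -0.85 ± 0.17 for FAS, -0.33 ± 0.11 for TNFRSF10B and -0.40 ± 0.32 for TNFRSF10D, the last of which was not called (adjusted p = 0.29). With gefitinib they were lower at 22, 23, 15 and 16 of 26 time points, in that order. TNFRSF10D was then well above background on only 9 of 26 arrays in PC9 and 4 of 26 in PC9M2, so its difference is limited by the background. The FAS difference was -1.95 at 0 h and -0.30 at 24 h without treatment, and -1.82 and 0.02 with gefitinib, and that of TNFRSF10B with gefitinib was 0.19 at 24 h.

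The other line differences were smaller or less stable. TNFRSF21 was higher in PC9M2 by 0.51 ± 0.14 without treatment and by 0.97 ± 0.16 with gefitinib (limma, adjusted p = 0.0023 and 6.13e-06). TNFRSF10C differed by -0.11 ± 0.12 without treatment (adjusted p = 0.46), where it was near background in both lines, and by -1.88 with gefitinib, a description only, since 1 of the 26 PC9M2 arrays was above background there. CFLAR was lower, at -0.40 ± 0.13 and -0.64 ± 0.13. FADD was lower, at -0.31 ± 0.10 without treatment (adjusted p = 0.0072) and differed by 0.03 ± 0.09 with gefitinib. For CASP8 the line difference without treatment depended on the probe, at 0.58 ± 0.22 for the 10-spot probe and -0.64 ± 0.13 for the other (adjusted p = 0.022 and 9.11e-05). The untreated calls of CASP8, CFLAR and FADD were lost with scan day as a random block.

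**Figure D5:**
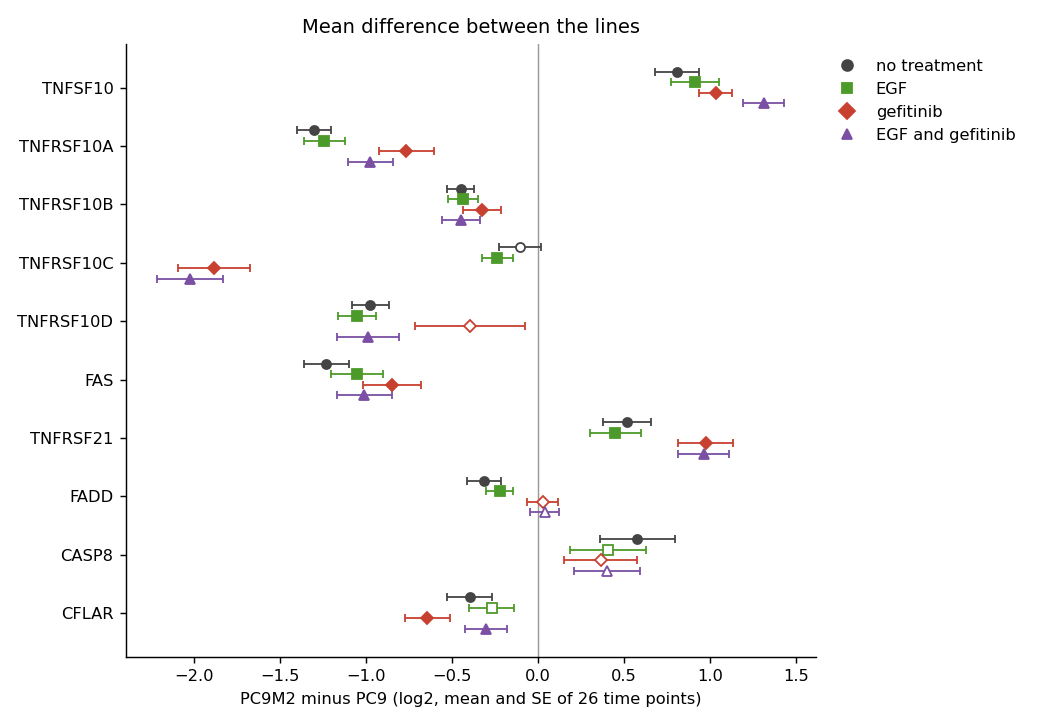
Mean difference between PC9M2 and PC9 (x axis, log2, with the standard error over 26 time points) for the 10 genes in the 4 treatments; filled symbols were called and open symbols were not. TNFSF10 and TNFRSF21 lie to the right of 0 in every treatment and TNFRSF10A, TNFRSF10B and FAS to the left, with TNFRSF10C far to the left only in the gefitinib courses.

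EGF gave calls for these genes about as often as for all genes. In PC9 3 of the 10 were called beside 25.6% of all tested genes. TNFSF10 was lower with EGF, at -0.62 ± 0.06 (limma, adjusted p = 8.32e-09, lower at 25 of 26 time points), with medians of 5.31 without and 4.62 with EGF, and was rank 51 of 13263 among the decreases. The probe was well above background on 15 of the 26 EGF and 19 of the 26 untreated arrays, and on no EGF array from 13 to 21 h, so the size of this difference is limited by the background. CFLAR was lower, at -0.20 ± 0.05 and TNFRSF10D higher by 0.27 ± 0.07 (adjusted p = 0.0063 and 0.0034). In PC9M2 only TNFSF10 was called, at -0.52 ± 0.12 (adjusted p = 0.0065, lower at 24 of 26 time points), beside 9.13% of all tested genes. Without 0.5 h it was -0.62 (adjusted p = 8.79e-06), and TNFRSF10A was then called too, at 0.23 (adjusted p = 0.014). These untreated arrays are also the controls of the gefitinib comparison. Under gefitinib, EGF gave 0 calls of 10 in PC9 and 0 of 10 in PC9M2 by limma, beside 0.0452% and 3.21% of all tested genes, and 1 and 3 genes had an unadjusted p under 0.05. Without 0.5 h, TNFSF10 (0.20, adjusted p = 0.024) and TNFRSF10B (-0.14, adjusted p = 0.0047) were called in PC9M2.

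The untreated courses were not flat. A spline over time was called for 7 of the 10 genes in PC9 beside 66.4% of all tested genes, and for 6 in PC9M2 beside 67.2%. Each time point of a line was on its own slide, scanned over 8 days in PC9 and 9 in PC9M2. Change over time in an untreated course cannot be told apart from slide or, between days, from scan day. In PC9 the largest fitted ranges were 1.92 for TNFRSF21 and 1.66 for TNFRSF10C. The latter was well above background on only 5 of the 26 untreated PC9 arrays, none after 3 h, so its range is limited by the background. The measured signal of TNFRSF21 was 11.07 at 0 h, lowest at 16 h with 9.33, and 12.00 at 24 h. In PC9M2 TNFSF10 went from 6.66 at 0 h to 4.86 at 6 h and was at 6.12 at 10 h, a fitted range of 1.74 (limma, adjusted p = 2.58e-05). Its rise from 5.11 at 9 h to 6.12 at 10 h falls between 2 scan days, and time and scan day cannot be told apart there. The gefitinib difference itself changed over time for 6 of 10 genes in PC9 beside 52.3%, namely the ligand, its 4 receptors and FAS. The 4 receptors include TNFRSF10C, which was tested only because it was high in the gefitinib-treated PC9 courses. Its part in this count is a description. In PC9M2 it did for 5 of 10 beside 45.6%, namely TNFSF10, TNFRSF10A, TNFRSF10B, FAS and TNFRSF21.

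A wider list of 36 genes of the same pathway, of which 30 were tested, moved in both directions. With gefitinib 11 were higher and 15 lower in PC9, with a median difference of -0.19, and 9 were higher and 13 lower in PC9M2, with a median of -0.09. Of all tested genes, 35.1% were called higher and 37.2% lower in PC9, and 32.6% and 34.2% in PC9M2, and their median differences were -0.02 and -0.01. The 7 tested genes with a called difference of at least 1 in either line were CASP10, MLKL, TNFAIP3, TRAF1, BIRC3, TNFRSF11B and TNFSF15. CASP10, the caspase closest to CASP8, was higher by 1.73 ± 0.13 in PC9 and 0.96 ± 0.15 in PC9M2. MLKL, the effector of necroptosis, was lower, at -2.30 ± 0.18 and -1.76 ± 0.11. The NF-kB feedback inhibitor TNFAIP3 (A20) was lower, at -1.83 ± 0.15 and -1.57 ± 0.18, and the inhibitor of apoptosis protein BIRC3, at -1.35 ± 0.22 and -1.87 ± 0.30. The soluble receptor TNFRSF11B (osteoprotegerin), which binds TRAIL, was lower, at -1.06 ± 0.23 and -0.96 ± 0.28. TRAF1, a TNF receptor adaptor, differed by -1.31 ± 0.24 in PC9 and by -0.03 ± 0.10 in PC9M2, and the ligand TNFSF15 by -0.64 ± 0.12 and -1.29 ± 0.20. All of these differences were called except that of TRAF1 in PC9M2 (limma, largest adjusted p of the others 0.0037).

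Over all arrays of both lines, the genes whose log2 signal followed TNFSF10 most closely were SELENOP (Pearson r = 0.97), PELI2 (0.96), HSD17B11 (0.96), AGR2 (0.95) and STARD13 (0.95). Those closest to FAS were SPDL1 (0.94), HAUS2 (0.94), MOB1A (0.94), MREG (0.93) and ATAD2 (0.93). All arrays of a treatment share that treatment's shift, so these values describe the courses. After removing each course's mean, the correlations were between 0.70 and 0.84 for TNFSF10 and between 0.80 and 0.87 for FAS.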

How the data were processed

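RNA of each sample was hybridized to a 1-colour Agilent whole-genome human array. Per the file headers, the authors extracted background-subtracted intensity values with Feature Extraction 10.5.1.1, and the table they deposited holds quantile-normalized intensity per probe; it equals the quantile normalization computed here within a relative deviation of 0.0014. From the scanner files, processed signals of 43376 non-control features were quantile normalized over all arrays, given a floor of 1 and log2 transformed; the deposited intensities themselves are linear. Outlier spots (0.301% of values) were left out, and spots of a probe were averaged. Probes were named by accession through RefSeq (24794 of 41000), and the probe with the largest variance stood for a gene. Genes well above background on at least 13 of 26 arrays of a course were kept (13263 of 16961).

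Differences between courses were paired by time point, as in the published methods, and tested with limma 3.58.1 in R 4.3.3. The tests were two-sided, with Benjamini-Hochberg adjustment over all tested genes and a threshold of 0.05. Paired treatments of a line also share a slide, whereas pairs between the lines do not. Time courses used natural splines with 4 degrees of freedom on genes with complete values. p-values take the time points as independent, whereas neighbouring gefitinib differences correlated (median lag-1 autocorrelation 0.29 in PC9 and 0.26 in PC9M2). This autocorrelation was higher for gefitinib with EGF present, at 0.49 in PC9 and 0.39 in PC9M2. For the line comparisons it was between 0.37 and 0.51. The tests were tried on simulated data with known changes. Its time points were drawn independently, so that trial does not cover the autocorrelation. The members and gene lists were chosen with earlier results of these data known. Other pathway genes were named where a called gefitinib difference reached 1 in either line. The alternatives were another background correction, scaling, floor, filter, probe choice, treatment of outliers, test, pairing, set of time points, spline and scan day as a block, the methods' t-test and the deposited table. The normexp alternative used median signals. The number of arrays limits the precision. The culture of PC9M2 is a single clone. Some genes of the lists are not reported here.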

Additional observations from a re-analysis of the deposited data

Results flagged for a closer look

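The response to gefitinib differed between PC9M2 and PC9 for 6 of the 10 genes by a test of the difference itself (limma on the differences paired by time point, n = 26), beside 34.0% of all tested genes. These include TNFRSF10C, which was tested only through the PC9 gefitinib courses and was near background in PC9M2, so its value is a description. On the log2 scale and as PC9M2 minus PC9, the difference was 0.228 for TNFSF10, 0.538 for TNFRSF10A, -1.77 for TNFRSF10C, 0.386 for FAS, 0.34 for FADD and 0.46 for TNFRSF21. It had the stated sign at 19, 20, 24, 18, 21 and 20 of 26 time points, in that order. Arrays of the 2 lines shared no slide and no scan day, so the line and the scan cannot be told apart. TNFSF10 was well above background on 19 of the 26 untreated PC9 arrays, and the part of this in its difference was not tested.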

How the results depend on the processing

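The counts of called genes among the 10 were recomputed under 22 other settings. The settings without 0.5 h and without 11, 16 and 18 h were chosen after seeing the data. Without 0.5 h the line comparisons with EGF and with both had 8 calls each. For the difference of the gefitinib response between the lines, 1 gene was called over the first 13 time points and 2 at time points 3 h apart, instead of 6. For EGF in PC9, 1 was called over the last 13 time points instead of 3. For EGF in PC9M2, 0 were called over the first 13 time points, with normexp background and at points 3 h apart, and 2 with 75th percentile scaling and without 0.5 h, instead of 1. For EGF under gefitinib in PC9M2, 1 was called over the last 13 time points and 2 without 0.5 h, instead of 0. A one-sided test for higher in PC9M2 called 3, 2, 2 and 2 genes without treatment, with gefitinib, with EGF and with both, since it cannot call lower genes. For the lines under EGF, a random block for scan day left 5 calls, against 4 at points 3 h apart and 5 with the variance inflated for autocorrelation, instead of 8, and with EGF and gefitinib 5 over the last 13 time points instead of 8. With the courses unpaired (no replicate block), 8 genes were called for gefitinib in PC9, 8 in PC9M2 and 4 for the difference between lines, and without the pairing EGF gave 1 call in PC9 and 0 in PC9M2. The line difference of CASP8 without treatment was -0.0308 with the mean of all probes (limma, adjusted p = 0.86), opposite in sign to that of its 10-spot probe. For FADD with EGF and gefitinib it was -0.237 with the brighter probe (limma, adjusted p = 0.0078). This was opposite in sign to the main FADD probe, whose mean in those courses was 10.88 in PC9M2 and 10.84 in PC9. Of the 101 called values of single genes, 59 were called in the same direction under every setting run, and 41 of the 69 uncalled values stayed uncalled. The settings include the one-sided test, which cannot call lower genes. Genes called lower in PC9M2 (6 without treatment, 5 with gefitinib, 6 with EGF, 6 with both) therefore count as changed under it. The cause of the other changes was not tested, except that the shorter sets hold fewer time points. Over all tested genes, the EGF counts fell at points 3 h apart, from 3395 to 548 in PC9 and from 1211 to 14 in PC9M2, and unpaired, to 400 and 89. The count for the difference between the lines fell from 4507 to 1037 at points 3 h apart and 1063 over the first 13, and that for gefitinib in PC9M2 from 8848 to 5415 over the first 13. Under gefitinib, the EGF counts of 6 in PC9 and 426 in PC9M2 ranged from 0 to 21 and from 0 to 954. The line counts of 9033, 9260 and 8980 without treatment, with EGF and with both fell to 5887, 5734 and 5723 at points 3 h apart, and the last to 5926 with inflated variance. The one-sided counts were 4091, 4043, 4330 and 4151. The untreated PC9M2 course had 5098 calls with scan day as a block instead of 8834. The 75th percentile scaling moved the median of all genes by at most 0.0665. Signals near background limit TNFRSF10C in every course, TNFRSF10D under gefitinib, and TNFSF10 in PC9 without gefitinib.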
